A study of Mus musculus with 4 samples.

Results

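RNA levels of 36 genes of cytosolic and mitochondrial protein folding were followed in mouse leukaemia cells with and without Tet2. The genes were selected by symbol from a table of 24497 gene rows, and all 36 were found. They comprise the heat shock transcription factors Hsf1 and Hsf2, which are regulators and not chaperones, and 34 chaperones and co-chaperones in 8 groups by role. The cells were acute myeloid leukaemia cells driven by NRAS and AE9a, a truncated AML1-ETO fusion, and both groups carry these oncogenes. One group was derived from bone marrow stem cells of wild-type mice (WT) and the other from Tet2-/- mice lacking exon 3 (Tet2 KO), with 2 libraries in each. Both groups grew with the cytokines SCF (50 ng/ml), IL-3 (10 ng/ml) and IL-6 (10 ng/ml), and under the selection drugs puromycin (2 µg/ml) and G418 (1 mg/ml). The labels name no heat or stress treatment and do not say whether the 2 libraries of a genotype came from separate mice, clones or dishes. The p-values below therefore cover library-to-library spread alone, and that spread may be technical.

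Chaperones bind unfolded or partly folded proteins, and many, though not all, release them by cycles of ATP binding and hydrolysis. HSP70 acts first on many clients with J-domain partners and nucleotide exchange factors, and passes some of them to HSP90. The ring-shaped chaperonin CCT folds actin and tubulin delivered by prefoldin, while HSP60 with its lid HSP10 and the HSP70 protein mortalin serve the mitochondrial matrix. HSF1 switches on many of these genes when unfolded proteins accumulate, and leukaemia cells are known to depend on HSP90 clients such as mutant kinases.

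Values are in TPM, a read abundance per transcript length scaled to the same total in every library, so levels can be compared between genes but sequencing depth is unknown. Of 24497 gene rows, 11452 were at 1 TPM or more in 2 or more libraries. These were tested with limma on log2(TPM + 1), with p-values adjusted over all of them. Fold changes called log2 are on that scale, where low genes appear to change less than they did, and folds without log2 are ratios of mean TPM. The calls were numerous: 73.9% of tested genes passed, 54.4% higher and 19.5% lower in Tet2 KO, and the median gene stood 0.23 higher on the log2 scale. The share of TPM in spike-in RNAs was 4.38 and 4.43% in WT and 5.48 and 5.33% in Tet2 KO. When libraries were rescaled by their median ratio, which brings the median gene near 0, 32.7% of genes were higher and 34.8% lower. Results on that scale are called relative to the median gene. Tet2 itself was listed at 16.62 and 16.98 TPM in the WT pair against 16.98 and 16.95 TPM in the Tet2 KO pair, a gene-level sum that does not separate exon 3 and so does not check the deletion. The leukocyte marker Ptprc and the myeloid markers Spi1, Cebpa, Mpo, Itgam and Lyz2 were present in all libraries, but several markers differed widely between genotypes. Lyz2 was at 19231 and 19239 TPM in WT and 7575 and 7652 TPM in Tet2 KO, Itgam at 380.06 and 385.46 against 220.71 and 227.39 TPM, and the progenitor marker Kit at 11.63 and 11.99 against 201.19 and 209.41 TPM. Other myeloid markers went the other way, with Mpo at 92.06 and 91.51 against 152.59 and 160.65 TPM and Cebpa at 41.61 and 38.54 against 52.16 and 57.96 TPM. Ptprc was also higher in Tet2 KO, and Spi1 was lower. The 3 megakaryocyte markers Pf4, Itga2b and Gp9 summed to 40.94 and 38.29 against 139.96 and 146.8 TPM, with Gp9 at 0.25 TPM or less in every library. T and B cell markers summed to at most 0.16 TPM in any library, and Cd3e was at 0. The mast cell markers Cpa3 and Tpsb2 were higher in Tet2 KO. Cpa3 was at 1716 and 1750 TPM in WT and 5030 and 4847 TPM in Tet2 KO, and Tpsb2 at 17.72 and 20.06 against 39.55 and 35.82 TPM. Mcpt8, a basophil marker despite its name, was lower, at 281.96 and 269.19 against 85.63 and 82.65 TPM. The part of these markers' cells in the chaperone results was not tested. In such bulk samples fewer cells of a type and less RNA per cell cannot be told apart.

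The chaperone genes moved in both directions, with mortalin (Hspa9) standing out by more than 2-fold higher RNA in Tet2 KO and Hsph1 (an HSP110), Hsp90aa1 (HSP90 alpha), the HSP90 co-chaperones Ahsa1 and Stip1, and the prefoldin subunits Pfdn1 and Pfdn4 lower. Of the 35 tested genes, each above 1 TPM in all 4 libraries, 12 were higher and 15 lower, or 34.3% and 42.9% against 54.4% and 19.5% of all tested genes. Their median log2 fold change was -0.06, against 0.23 for all tested genes. Without regard to the test, 13 had both Tet2 KO libraries above both WT libraries and 20 had both below, against 62.4% and 24.4% of all genes and 86.8% in either direction. Relative to the median gene, 3 were higher and 23 lower, with a median of -0.31, against 32.7% and 34.8% of all genes and 67.5% in either direction. Scaling to the spike-in RNAs gave 3 higher and 25 lower, against 29.6% and 37.8% (67.4% in either direction). The 3 that were higher on every scale were Hspa9, Cct4 and Hspa1b. The 15 genes that were lower as deposited were also lower relative to the median gene. That scale shifts log2 fold changes down, so this outcome was nearly fixed in advance. Because the set was proposed with results of these data in view, these counts describe it and no test was made of the set as a whole.

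**Figure D1:**
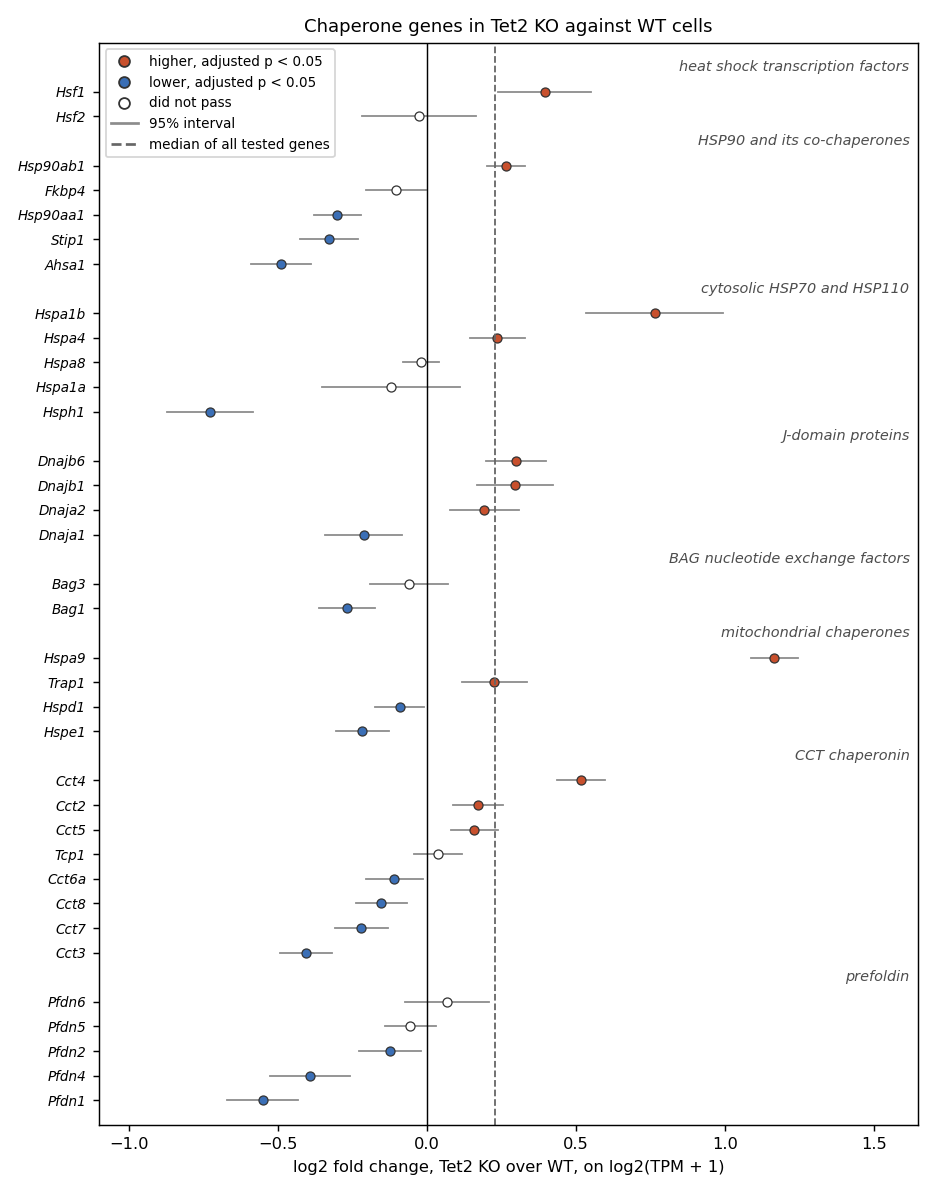
Log2 fold change (Tet2 KO over WT, on log2(TPM + 1)) of the 35 tested genes by role, with 95% intervals from limma; filled points passed an adjusted p of 0.05 and the dashed line is the median of all tested genes, 0.23. Hspa9 lies farthest to the right at 1.17 and Hsph1 farthest to the left at -0.73, and most other genes lie left of the dashed line.

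The summed level of the 36 genes differed little between genotypes. It was 9031 and 9158 TPM in the WT libraries and 9586 and 9553 TPM in the Tet2 KO libraries, a ratio of means of 1.05. Without Hspa9 the sums were 8753 and 8870 TPM against 8953 and 8913 TPM, a ratio of 1.01. Both Tet2 KO sums lay above both WT sums in each case as deposited. On the median-ratio scale the order turned, with a ratio of 0.883 for all 36 genes and 0.851 without Hspa9, and both Tet2 KO sums below both WT sums. The 3 most abundant cytosolic chaperones, Hspa8, Hsp90ab1 and Hsp90aa1, made up 46.7% of the sum in both WT libraries and 46.1 and 46.4% in the Tet2 KO libraries. At the other end, Hspa1a, Hspa1b and the small heat shock gene Hspb1 averaged below 5 TPM in both groups. Other genes known as heat-inducible, such as Hsp90aa1, Hsph1 and Dnajb1, were well above that level.

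The transcription factor Hsf1 (chromosome 15, 76477422 to 76501913, mm10) is the main activator of the heat shock response. It was at 15.67 and 16.26 TPM in the WT pair against 20.00 and 22.71 TPM in the Tet2 KO pair, so the groups did not overlap. The log2 fold change was 0.40 (SE 0.0739, adjusted p by limma = 1.51e-04), and relative to the median gene it was 0.16 and did not pass (adjusted p by limma = 0.0665). Hsf2, a related factor active in development and proteotoxic stress, was at 7.77 and 7.32 TPM in the WT pair against 7.63 and 7.16 TPM in the Tet2 KO pair. These ranges overlapped and the log2 fold change of -0.03 had a 95% interval of -0.22 to 0.16 (adjusted p by limma = 0.805). Relative to the median gene Hsf2 was lower, by -0.25 (adjusted p by limma = 0.0273).

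HSF1 binds arrays of a short inverted repeat, the heat shock element. The 250 bases before the annotated start, taken from the RefSeq promoter table of GRCm38.p6 (the mm10 assembly), were searched for its paired form, GAANNTTC or TTCNNGAA, each of which reads the same on both strands. The tripled form, GAANNTTCNNGAA on one strand and TTCNNGAANNTTC on the other, contains overlapping pairs and was counted separately. Of the 36 genes 29 matched an entry in the table. Hsf1, Hsp90aa1, Hsp90ab1, Hspa8, Hspa9, Cct4 and Pfdn1 had no entry and were not searched. A gene with several starts was counted if a match lay before any of them. A pair was found in 11 of the 29 (37.9%), against 14.5% of all 27025 genes in the table, and a triplet in 3 (10.3%), against 0.514%. The set was chosen in part as HSF1-driven genes, so higher shares are built in and are no result about it. Hspd1 and Hspe1 also count the same stretch, and Hspa1a and Hspa1b near-identical ones. The stretches below carry the paired or tripled letters for the genes whose values follow. The capitals mark the paired repeats, and stretches that touch an annotated exon are kept to 30 bases or fewer. These exons come from GENCODE, whose gene bounds can reach past a RefSeq start. They are of Hspd1 in the Hspe1 stretch, of Dnajb6 and Gm5129 in the Dnajb6 stretch, and of Hsph1 in its own.
Hspe1, chr1:55088053-55088082, plus strand, between the divergent starts of Hspd1 and Hspe1: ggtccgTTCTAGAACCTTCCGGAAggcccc
Dnajb6, chr5:29735844-29735872, plus strand: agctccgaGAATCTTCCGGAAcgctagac
Hsph1, chr5:149636351-149636380, minus strand: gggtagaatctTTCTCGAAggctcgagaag
Hspa1a, chr17:34972227-34972286, minus strand: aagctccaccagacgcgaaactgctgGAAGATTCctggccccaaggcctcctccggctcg
Hspa1b, chr17:34959309-34959368, minus strand: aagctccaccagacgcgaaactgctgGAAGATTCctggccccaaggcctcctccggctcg

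The genes with these letters had calls in both directions as deposited, where 54.4% of all tested genes were higher and 19.5% lower. Of the 11 with a pair, 4 were higher in Tet2 KO (Dnajb6, Hspa1b, Cct2 and Cct5), 4 were lower (Hsph1, Hspd1, Hspe1 and Dnaja1), 2 did not pass (Hspa1a and Fkbp4) and Hspb1 was too low to test. Of the 18 searched genes without one, 4 were higher, 9 lower and 5 did not pass. On the median-ratio scale, 1 of the 11 was higher (Hspa1b), 7 were lower and 2 did not pass, and of the 18 none was higher, 13 were lower and 5 did not pass (32.7% and 34.8% of all tested genes). The letters in capitals in Dnajb6 and in the stretch shared by Hspd1 and Hspe1 form triplets. With median-ratio scaling Hspd1 and Hspe1 were lower and Dnajb6 did not pass. A match describes the sequence only, and binding was not measured.

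Among the cytosolic HSP70 proteins, Hspa8 (HSC70, the constitutive form) was the most abundant gene of the set and differed little between genotypes. It was at 1969.47 and 1974.90 TPM in the WT pair against 1944.53 and 1949.77 TPM in the Tet2 KO pair. The log2 fold change was -0.02, with a 95% interval of -0.08 to 0.04 (adjusted p by limma = 0.577), and relative to the median gene it was -0.27 (adjusted p by limma = 2.24e-04). Of the stretches of 75 bases in the longest Hspa8 transcript, 68.0% also occur in other annotated genes, most of them in Gm15459, so its level is uncertain. The stress-inducible pair Hspa1a and Hspa1b lie close together on chromosome 17 (34969190 to 34972156 and 34956436 to 34959238) and encode almost the same HSP70 protein. Of the 250 bases before their starts, 247 were identical, and the stretches printed above do not differ.

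Hspa1b was at 2.20 and 2.21 TPM in the WT pair against 4.63 and 4.27 TPM in the Tet2 KO pair. This is a 2.02-fold higher mean with a log2 fold change of 0.77 (SE 0.108, adjusted p by limma = 8.86e-06). Hspa1a was at 3.77 and 3.33 TPM in the WT pair against 3.31 and 3.06 TPM in the Tet2 KO pair, a log2 fold change of -0.12 with an interval of -0.35 to 0.11 (adjusted p by limma = 0.335). Relative to the median gene Hspa1a was lower (-0.31, adjusted p by limma = 0.0263) and Hspa1b stayed higher (0.57, adjusted p by limma = 9.88e-04). Of the stretches of 75 bases in the longest Hspa1b transcript, 55.8% also occur in Hspa1a, so the division of reads between the copies is uncertain. Their sum was 5.97 and 5.54 TPM in WT and 7.94 and 7.33 TPM in Tet2 KO, and the groups did not overlap. On the median-ratio scale it was 6.55 and 5.99 against 7.34 and 6.62, a ratio of 1.11 with the groups barely apart.

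Hsph1 and Hspa4 are both HSP110 proteins, which release ADP from HSP70 and so speed its cycle, and they moved in opposite directions. Hsph1 (chromosome 5, 149614287 to 149636376), the heat-inducible one, was at 25.08 and 26.37 TPM in the WT pair against 14.66 and 15.61 TPM in the Tet2 KO pair. Its mean was 1.70-fold lower, with a log2 fold change of -0.73 (SE 0.068, adjusted p by limma = 7.14e-08), the largest fall among the 35 tested genes. Hspa4 was at 148.54 and 155.03 TPM in the WT pair against 180.38 and 177.73 TPM in the Tet2 KO pair (log2 fold change 0.24, adjusted p by limma = 1.40e-04). Relative to the median gene Hspa4 did not pass, at -0.01 (adjusted p by limma = 0.777). The ratio of Hspa4 to Hsph1 within a library, which no scaling of the libraries can alter, was 5.92 and 5.88 in WT and 12.3 and 11.4 in Tet2 KO. With 2 libraries in each group an exact two-sided permutation test cannot go below p = 0.333, so such ratios are given without one.

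The HSP90 paralogs also parted. Hsp90ab1 (chromosome 17, 45567775 to 45573271) encodes the constitutive beta form and was at 1600.10 and 1624.30 TPM in the WT pair against 1920.82 and 1958.47 TPM in the Tet2 KO pair. Hsp90aa1 (chromosome 12, 110690605 to 110702728) encodes the inducible alpha form and was at 651.23 and 675.49 TPM in the WT pair against 551.61 and 526.26 TPM in the Tet2 KO pair. In both cases the groups lay apart. The log2 fold changes were 0.27 for Hsp90ab1 (adjusted p by limma = 6.73e-07) and -0.30 for Hsp90aa1 (adjusted p by limma = 2.35e-06). Hsp90ab1 was thus 2.46 and 2.40 times as abundant as Hsp90aa1 in the WT libraries, and 3.48 and 3.72 times in the Tet2 KO libraries. Relative to the median gene Hsp90ab1 did not pass, at 0.01 (adjusted p by limma = 0.739), and Hsp90aa1 stayed lower, at -0.55. The summed HSP90 level was 2251 and 2300 TPM against 2472 and 2485 TPM, a ratio of 1.09 that became 0.914 on the median-ratio scale. Of the 75-base stretches of the Hsp90aa1 transcript 53.1% occur in other annotated genes, most of them in the predicted gene Gm12346, and how reads were divided there is unknown.

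All 3 HSP90 co-chaperones of the set were lower in mean. Ahsa1, which stimulates the HSP90 ATPase, was at 160.32 and 165.95 TPM in the WT pair against 112.39 and 119.56 TPM in the Tet2 KO pair (log2 fold change -0.49, SE 0.0475, adjusted p by limma = 1.13e-07). Stip1, the adaptor that joins HSP70 to HSP90, was at 132.01 and 133.33 TPM in the WT pair against 105.28 and 105.74 TPM in the Tet2 KO pair (log2 fold change -0.33, adjusted p by limma = 6.73e-06). The immunophilin gene Fkbp4, known from steroid receptor complexes, was at 101.75 and 104.33 TPM in the WT pair against 94.50 and 97.31 TPM in the Tet2 KO pair. It missed the threshold as deposited (log2 fold change -0.10, adjusted p by limma = 0.0635). Fkbp4 passed without Tet2 KO replicate 2 (adjusted p by limma = 0.0313, span over the alternatives 1.35e-08 to 0.337) and was lower relative to the median gene (-0.35). In relation to its own co-chaperone, Hsp90ab1 stood at 9.98 and 9.79 times the level of Ahsa1 in WT and at 17.1 and 16.4 times in Tet2 KO.

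**Figure D2:**
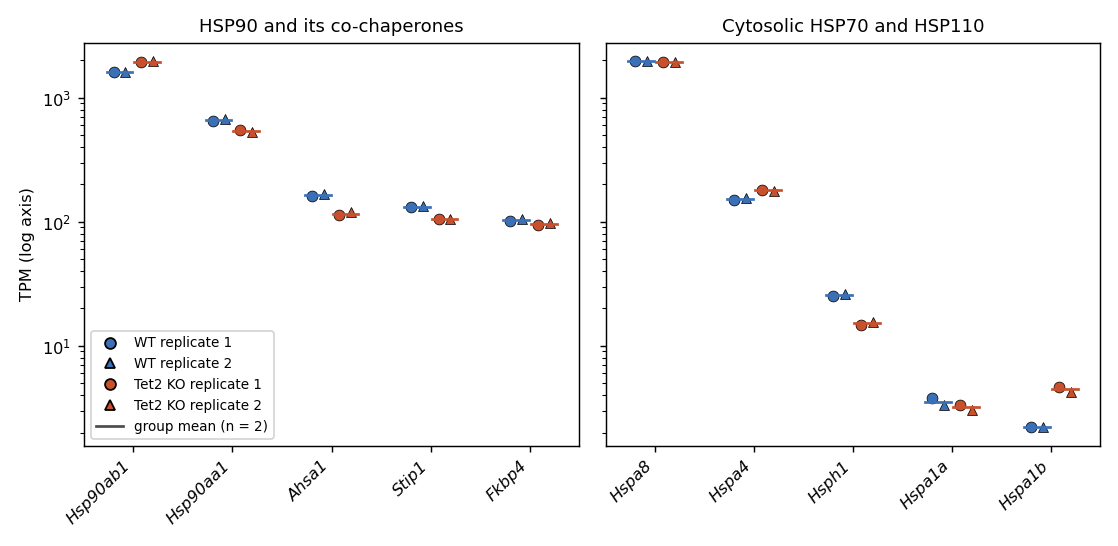
TPM on a log axis of HSP90 and its co-chaperones (left) and of cytosolic HSP70 and HSP110 genes (right) in each of the 4 libraries, with horizontal bars for group means of n = 2. Hsp90ab1 and Hsp90aa1 move apart, Hsph1 drops from a mean of 25.7 to 15.1 TPM, Hspa8 stays within 1944.53 to 1974.90 TPM, and Hspa1a and Hspa1b lie below 5 TPM.

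J-domain proteins deliver clients to HSP70 and stimulate its ATPase. Dnajb1, the classical HSP40, was at 27.11 and 26.04 TPM in the WT pair against 32.61 and 33.10 TPM in the Tet2 KO pair (log2 fold change 0.30, adjusted p by limma = 3.16e-04). Dnajb6, a suppressor of protein aggregation, was at 94.44 and 97.23 TPM in the WT pair against 119.72 and 116.64 TPM in the Tet2 KO pair (log2 fold change 0.30, adjusted p by limma = 2.78e-05). Dnaja2 was at 109.72 and 112.24 TPM in the WT pair against 134.43 and 120.04 TPM in the Tet2 KO pair (log2 fold change 0.19, adjusted p by limma = 0.00473). These 3 genes rose about as much as the median gene, and none passed relative to it (0.05, 0.05 and -0.06, adjusted p by limma = 0.404, 0.332 and 0.447). Dnaja1 went the other way, from 94.30 and 105.02 TPM to 89.58 and 82.18 TPM (log2 fold change -0.21, adjusted p by limma = 0.00622). That call was lost without WT replicate 2 (adjusted p by limma = 0.138) and without Tet2 KO replicate 2 (0.0565), with a span over the alternatives of 1.51e-11 to 0.138.

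The BAG proteins are nucleotide exchange factors that couple HSP70 to protein disposal. Bag1, which links HSP70 to the proteasome, was at 171.35 and 179.87 TPM in the WT pair against 146.07 and 145.11 TPM in the Tet2 KO pair (log2 fold change -0.27, adjusted p by limma = 4.60e-05). Bag3, a well-known HSF1 target that directs clients to autophagy, was at 29.85 and 30.22 TPM in the WT pair against 27.87 and 29.74 TPM in the Tet2 KO pair. Its log2 fold change of -0.06 had an interval of -0.19 to 0.07 (adjusted p by limma = 0.393), and relative to the median gene it was lower (-0.30, adjusted p by limma = 8.63e-04). Hspb1, the small heat shock protein HSP25 of the mouse, was at 0.55 and 0.26 TPM in the WT pair against 0.32 and 0.08 TPM in the Tet2 KO pair, below the level needed for the test.

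In the mitochondrial group Hspa9 had by far the largest rise. Hspa9 encodes mortalin, the matrix HSP70 that pulls proteins through the inner membrane, folds them and takes part in iron-sulphur cluster transfer. It was at 278.15 and 287.88 TPM in the WT pair against 633.02 and 639.86 TPM in the Tet2 KO pair, means of 283.02 ± 6.88 and 636.4 ± 4.84 (SD, n = 2). The 2.25-fold difference (log2 fold change 1.17, SE 0.0372, adjusted p by limma = 1.28e-13) far exceeded the spread between libraries, and relative to the median gene it was 0.91 (adjusted p by limma = 2.83e-07). Of all tested genes 9.45% were called and at least 2-fold higher, and in the set Hspa9 and Hspa1b were, while none was 2-fold lower (3.83% of all tested genes). Only 0.336% of the 75-base stretches of the Hspa9 transcript occur in another annotated gene.

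The folding chamber of the matrix did not follow. Hspd1 (HSP60) was at 330.36 and 341.85 TPM in the WT pair against 317.78 and 313.20 TPM in the Tet2 KO pair, a log2 fold change of -0.09 that passed narrowly (adjusted p by limma = 0.044). It was lost in 8 of the 15 alternatives run, among them those without WT replicate 1, WT replicate 2 or Tet2 KO replicate 2 (adjusted p by limma = 0.106, 0.359 and 0.0791, span over the alternatives 7.43e-11 to 0.359). Hspe1 (HSP10), its lid, was at 246.48 and 239.20 TPM in the WT pair against 212.76 and 205.02 TPM in the Tet2 KO pair (log2 fold change -0.22, adjusted p by limma = 2.09e-04). Hspd1 and Hspe1 are neighbours on chromosome 1 (55077835 to 55088243 and 55088132 to 55091307) and are transcribed in opposite directions. The printed triplets lie between the Hspe1 start and the RefSeq start of Hspd1 that is 216 bases from it. Another RefSeq start of Hspd1 lies beyond that of Hspe1, and no pair was found before it. From that start the printed stretch falls within Hspd1. The ratio of Hspd1 to Hspe1 was 1.34 and 1.43 in WT and 1.49 and 1.53 in Tet2 KO. Their annotated exons overlap on opposite strands, and 33.7% and 23.7% of their 75-base stretches occur in other annotated genes, for Hspd1 mostly in its pseudogene copy Hspd1-ps3.

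Trap1, the mitochondrial HSP90, was at 69.59 and 73.28 TPM in the WT pair against 82.42 and 85.09 TPM in the Tet2 KO pair (log2 fold change 0.23, adjusted p by limma = 9.06e-04), which equals the shift of the median gene (relative to it -0.02, adjusted p by limma = 0.657). Within a library Hspa9 stood at 0.842 times the level of Hspd1 in both WT libraries, and at 1.99 and 2.04 times in the Tet2 KO libraries. The order of the 4 genes thus changed from Hspd1, Hspa9, Hspe1, Trap1 to Hspa9, Hspd1, Hspe1, Trap1. Beside the cytosolic Hspa8, whose level is uncertain because of shared sequence, Hspa9 was at 0.141 and 0.146 times the level of Hspa8 in WT and at 0.326 and 0.328 times in Tet2 KO.

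Other genes of mitochondrial protein quality control were taken from a list of 21 genes of import, folding and proteolysis. Of these 5 were higher and 11 lower (23.8% and 52.4%, against 54.4% and 19.5% of all tested genes), with a median log2 fold change of -0.15 against 0.23. On the median-ratio scale 2 were higher and 14 lower (9.52% and 66.7%, against 32.7% and 34.8%). The largest rise was that of Hscb, the J-domain partner of mortalin in iron-sulphur cluster assembly, at 25.94 and 25.48 TPM in the WT pair against 58.86 and 51.86 TPM in the Tet2 KO pair (adjusted p by limma = 4.43e-10). The ratio of Hspa9 to Hscb was 10.7 and 11.3 in WT and 10.8 and 12.3 in Tet2 KO, and these ranges overlapped. Grpel2, a nucleotide exchange factor of mortalin, rose from 17.3 ± 0.453 to 26.1 ± 0.0495 TPM (adjusted p by limma = 8.10e-07). Chosen after their values were seen, the other exchange factor Grpel1 was lower (37.66 and 39.46 against 32.64 and 34.02 TPM, adjusted p by limma = 0.00523) and the J-domain partner Dnaja3 higher (32.70 and 32.75 against 42.11 and 42.21 TPM, adjusted p by limma = 2.99e-05). Relative to the median gene Dnaja3 did not pass (0.11, adjusted p by limma = 0.0666). Phb, which encodes a prohibitin of the inner membrane, fell from 106.2 ± 1.32 to 63.5 ± 1.74 TPM (adjusted p by limma = 1.56e-09). The inner-membrane protease gene Oma1 fell from 13.7 ± 1.12 to 10.5 ± 1.58 TPM (adjusted p by limma = 0.00509), which did not hold without Tet2 KO replicate 1 (adjusted p by limma = 0.05004, span over the alternatives 1.29e-07 to 0.05004).

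**Figure D3:**
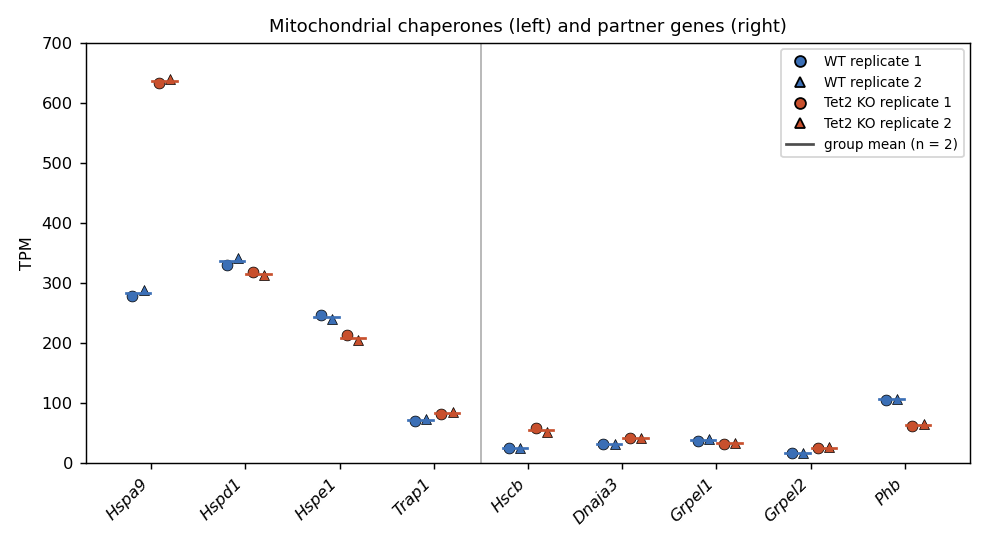
TPM of the 4 mitochondrial chaperone genes and of 5 partner genes of the matrix and inner membrane in each library, with bars for group means of n = 2. Hspa9 moves from below Hspd1 in WT to about 2 times its level in Tet2 KO, Hscb rises, and Phb falls.

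The 8 subunits of CCT form one ring in equal numbers, and their RNAs changed unequally. Cct4 (chromosome 11, 22990519 to 23003780) was at 264.64 and 264.77 TPM in the WT pair against 375.59 and 382.70 TPM in the Tet2 KO pair (log2 fold change 0.52, SE 0.038, adjusted p by limma = 3.94e-09). Cct2 and Cct5 were also higher, by 0.17 and 0.16 (adjusted p by limma = 8.18e-04 and 0.00111). Cct3 (chromosome 3, 88297116 to 88321767) was at 231.02 and 226.83 TPM in the WT pair against 170.85 and 174.41 TPM in the Tet2 KO pair (log2 fold change -0.41, SE 0.0416, adjusted p by limma = 2.19e-07). Cct7, Cct8 and Cct6a were lower by smaller amounts, with log2 fold changes of -0.22, -0.15 and -0.11 (adjusted p by limma = 2.04e-04, 0.00284 and 0.0382). Tcp1, the subunit that gave the complex its name, was at 323.47 and 329.61 TPM in the WT pair against 333.07 and 337.24 TPM in the Tet2 KO pair and did not pass (0.04, interval -0.04 to 0.12, adjusted p by limma = 0.38).

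Of the 8 subunits 37.5% were thus called higher and 50% lower, against 54.4% and 19.5% of all tested genes. The 3 rises and 4 falls left the summed CCT level at 2216 and 2241 TPM in WT and 2321 and 2313 TPM in Tet2 KO, a ratio of 1.04 that became 0.873 on the median-ratio scale. Relative to the median gene only Cct4 was higher (0.26, adjusted p by limma = 2.46e-04), 6 were lower and Cct2 did not pass (-0.08, adjusted p by limma = 0.126). These are 12.5% higher and 75% lower, against 32.7% and 34.8% of all tested genes. As a share of the summed subunit TPM, which no scaling of the libraries can alter, Cct4 went from 11.9% ± 0.0917 to 16.4% ± 0.253 (SD, n = 2), and it passed Tcp1 in the order of the subunits. The share of Cct3 went from 10.3% ± 0.216 to 7.45% ± 0.125. Cct4 was 1.15 and 1.17 times as abundant as Cct3 in WT and 2.20 and 2.19 times in Tet2 KO. The coefficient of variation over the 8 subunits was 23.7 and 25.3% in WT and 37.2 and 37.4% in Tet2 KO. Cct2 and Cct5 turned negative relative to the median gene, where Cct5 was called lower (-0.09, adjusted p by limma = 0.0425, span over the alternatives 1.36e-04 to 0.0425). Cct6a did not pass in 8 of the 15 alternatives run, among them those without WT replicate 1, WT replicate 2 or Tet2 KO replicate 2 (adjusted p by limma = 0.142, 0.202 and 0.204, span over the alternatives 1.56e-10 to 0.204). Cct8 did not pass without WT replicate 2 (adjusted p by limma = 0.0621, span over the alternatives 1.73e-12 to 0.0621).

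In prefoldin, which captures new actin and tubulin chains and hands them to CCT, 3 of 5 genes (60%) were lower and none higher. Of all tested genes 19.5% were lower and 54.4% higher. Pfdn1 was at 71.44 and 67.08 TPM in the WT pair against 47.72 and 46.18 TPM in the Tet2 KO pair (log2 fold change -0.55, SE 0.0555, adjusted p by limma = 1.77e-07), the second largest fall of the set. Pfdn4 was at 29.53 and 29.70 TPM in the WT pair against 23.08 and 21.65 TPM in the Tet2 KO pair (log2 fold change -0.39, adjusted p by limma = 3.40e-05). Both genes lay apart between the groups. Pfdn2 was at 121.31 and 126.05 TPM against 117.17 and 109.83 TPM (log2 fold change -0.12, adjusted p by limma = 0.0325). Its call was lost in 6 of the 15 alternatives run, among them those without WT replicate 1, WT replicate 2 or Tet2 KO replicate 2 (adjusted p by limma = 0.0775, 0.265 and 0.15, span over the alternatives 1.10e-09 to 0.265).

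The other subunits did not pass as deposited. Pfdn5, by far the most abundant, was at 238.79 and 234.43 TPM against 230.77 and 224.73 TPM (-0.05, interval -0.14 to 0.03, adjusted p by limma = 0.232). Pfdn6 was at 84.56 and 77.20 TPM against 90.05 and 79.78 TPM, which overlapped (0.07, interval -0.07 to 0.21, adjusted p by limma = 0.358). Pfdn6 was called higher without Tet2 KO replicate 2 (adjusted p by limma = 0.0344, span over the alternatives 0.00135 to 0.974). The sixth subunit of the hexamer is encoded by Vbp1, which was added to complete it after its values were seen, at 45.02 and 48.68 TPM against 50.90 and 42.00 TPM (adjusted p by limma = 0.869). Relative to the median gene 4 of the 5 Pfdn genes (80%) were lower and none higher, against 34.8% and 32.7% of all tested genes. The share of Pfdn1 in the summed TPM of the 6 subunits went from 11.8% ± 0.419 to 8.67% ± 0.201 (SD, n = 2), and Pfdn5 was 3.34 and 3.49 times as abundant as Pfdn1 in WT and 4.84 and 4.87 times in Tet2 KO.

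**Figure D4:**
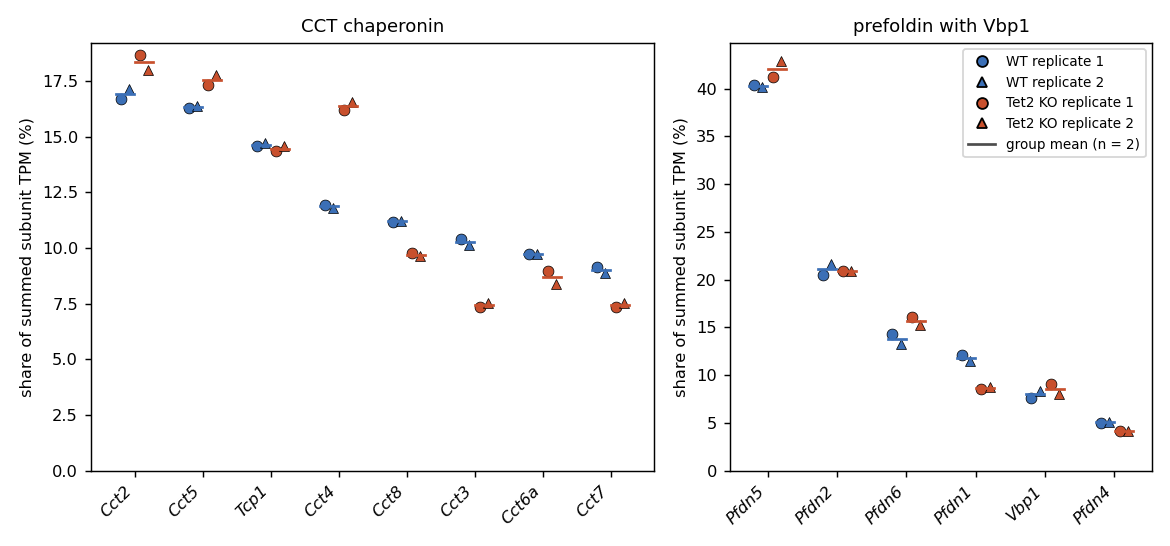
Share of each subunit in the summed TPM of CCT (left) and of prefoldin with Vbp1 (right) in each library, with bars for group means of n = 2 and subunits ordered by their WT share. The share of Cct4 moves from 11.9 to 16.4% and that of Cct3 from 10.3 to 7.45%, while that of Pfdn1 moves from 11.8 to 8.67%.

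Relatives outside the set were counted on lists of their families drawn from textbook knowledge, with earlier results of these data known. Of 90 tested genes in 6 lists, the mitochondrial one included, 43 were higher and 25 lower (47.8% and 27.8%, against 54.4% and 19.5% of all tested genes). On the median-ratio scale 18 were higher and 40 lower (20.0% and 44.4%, against 32.7% and 34.8%). Of 19 further HSP90 co-chaperones 11 were higher and 3 lower, or 57.9% and 15.8% beside 54.4% and 19.5% of all tested genes. By the median-ratio scale 5 were higher and 8 lower, or 26.3% and 42.1% beside 32.7% and 34.8%. The immunophilin gene Fkbp5 rose from 51.7 ± 0.0636 to 74.2 ± 3.31 TPM (adjusted p by limma = 3.08e-07) and Fnip1, which encodes a folliculin partner that slows the HSP90 ATPase, from 33.4 ± 2.38 to 48.9 ± 1.41 TPM (adjusted p by limma = 8.38e-07). Nudc fell from 170.96 ± 2.56 to 117.2 ± 6.99 TPM (adjusted p by limma = 4.71e-08) and Cacybp from 106.3 ± 1.16 to 83.3 ± 10.7 TPM (adjusted p by limma = 0.00377). The immunophilins Fkbp4 and Fkbp5, which compete for HSP90, thus had log2 fold changes of -0.10 and 0.51.

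Of 13 tested HSP70 relatives and regulators 8 were higher and 4 lower, or 61.5% and 30.8% beside 54.4% and 19.5% of all tested genes. By the median-ratio scale 2 were higher and 5 lower, or 15.4% and 38.5% beside 32.7% and 34.8%. Hspa13, a microsomal HSP70, rose from 24.1 ± 1.61 to 35.4 ± 3.94 TPM (adjusted p by limma = 4.33e-05) and Bag5 from 19.2 ± 0.318 to 26.4 ± 0.0212 TPM (adjusted p by limma = 9.96e-06). The call of Bag5 was lost with spike-in scaling (adjusted p by limma = 0.059, span over the alternatives 1.41e-06 to 0.059). Hspa2 fell from 6.84 ± 0.163 to 4.29 ± 0.629 TPM (adjusted p by limma = 1.21e-04) and Hspbp1, which encodes an exchange factor that inhibits HSP70, from 18.9 ± 1.29 to 14.4 ± 0.884 TPM (adjusted p by limma = 3.33e-04). Of 22 further J-domain genes 13 were higher and 4 lower, or 59.1% and 18.2% beside 54.4% and 19.5% of all tested genes. By the median-ratio scale 5 were higher and 6 lower, or 22.7% and 27.3% beside 32.7% and 34.8%. Dnajc6, which encodes the clathrin uncoating factor auxilin, rose from 11.7 ± 0.714 to 24.9 ± 0.721 TPM (adjusted p by limma = 2.02e-09), and Dnajb4 from 15.3 ± 1.22 to 27.9 ± 1.4 TPM (adjusted p by limma = 3.17e-08). Dnajb5 fell from 5.91 ± 0.269 to 3.21 ± 0.636 TPM (adjusted p by limma = 3.24e-05). Dnajc25 fell from 10.2 ± 0.658 to 8.34 ± 0.332 TPM (adjusted p by limma = 0.0103), which did not hold without WT replicate 2 (adjusted p by limma = 0.128, span over the alternatives 7.80e-07 to 0.128).

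Of 9 further small heat shock genes 3 could be tested, too few to describe the family. As deposited 1 was higher and 1 lower, or 33.3% each beside 54.4% and 19.5% of all tested genes. The median-ratio scale gave the same counts, beside 32.7% and 34.8%. Hspb11, which despite its name encodes a protein of intraflagellar transport, rose from 7.91 ± 0.785 to 17.4 ± 3.46 TPM (adjusted p by limma = 1.59e-04). Hspb6, named after its values were seen, had 8.73 and 9.76 TPM in WT against 8.71 and 11.5 TPM in Tet2 KO (log2 fold change 0.11, adjusted p by limma = 0.424). Cryab, the alpha B-crystallin gene, named after its values were seen, was listed at 0 in each WT library and at 0.91 and 1.14 TPM in Tet2 KO. Of 12 tested partners of CCT and prefoldin 5 were higher and 2 lower, or 41.7% and 16.7% beside 54.4% and 19.5% of all tested genes. By the median-ratio scale 3 were higher and 6 lower, or 25.0% and 50.0% beside 32.7% and 34.8%. Uri1, a prefoldin-like gene, rose from 26.3 ± 0.849 to 50.8 ± 3.22 TPM (adjusted p by limma = 1.35e-09) and the tubulin cofactor gene Tbce from 31.4 ± 0.905 to 43.7 ± 1.24 TPM (adjusted p by limma = 2.37e-06). The tubulin cofactor genes Tbcb and Tbca fell, from 67.1 ± 0.566 to 44.5 ± 2 TPM (adjusted p by limma = 8.58e-08) and from 162.2 ± 1.2 to 144.2 ± 7.16 TPM (adjusted p by limma = 0.00393). The call of Tbca was lost without WT replicate 1 (adjusted p by limma = 0.0502, span over the alternatives 7.38e-12 to 0.0502).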

How the data were processed

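RNA of 4 samples was sequenced from libraries of a stranded mRNA kit, per the labels' protocols. The authors deposited TPM, made with STAR and RSEM on mm10 per the submitters' processing notes. No source used here gives versions, annotation or strand setting. The 92 ERCC spike-in rows stayed out of the tests. Genes that reached 1 TPM in 2 or more libraries were tested on log2(TPM + 1) with limma 3.58.1 (trended, robust variance prior; statmod 1.5.0; R 4.3.3) and Benjamini-Hochberg adjustment over 11452 genes at 0.05. The procedure was tested on simulated data. The 36 genes and all lists were chosen with earlier results of these data known. Named genes were all members and, of each of 6 wider lists, up to 2 rises and 2 falls, called, non-overlapping and averaging at least 5 TPM. Positions and shared 75-base stretches come from GENCODE M21 on mm10, and promoters from RefSeq GRCm38.p6. At least 10% of such stretches were shared in 11 members (Hsp90aa1, Ahsa1, Hspa8, Hspa1a, Hspa1b, Dnaja1, Dnajb6, Hspb1, Hspd1, Hspe1 and Pfdn5), whose values are uncertain. Exons of 13 members overlap a gene on the opposite strand. Alternatives were pseudocounts, filters, scalings, limma settings, a replicate block and leaving out each library. Figures were drawn with matplotlib 3.10.9.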

Additional observations from a re-analysis of the deposited data

How the results depend on the processing

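Of the 27 members called as deposited, 13 kept direction and call in every alternative run: Hspa9, Cct4, Hspa1b, Hsp90aa1, Stip1, Ahsa1, Hsph1, Bag1, Hspe1, Cct3, Cct7, Pfdn1 and Pfdn4 (Hspa1b could not be tested with a filter of 5 TPM). The scale mattered most. Of all genes, 3743 were higher and 3982 lower with median-ratio scaling, 3394 and 4324 with spike-in scaling, and 3915 and 3741 with quantile normalization, against 6225 and 2238 as deposited. Of the members, 3 were higher and 23 lower with median-ratio scaling, and 3 and 25 with spike-in scaling, against 12 and 15. Quantile normalization gave 8 members higher and 18 lower, and among the CCT genes 3 higher and 3 lower. With median-ratio and spike-in scaling log2 fold changes turned negative for Hspa4 (-0.014 and -0.0571), Dnaja2 (-0.0573 and -0.10), Trap1 (-0.0226 and -0.0655), Tcp1 (-0.21 and -0.26), Cct2 (-0.0794 and -0.12), Cct5 (-0.0927 and -0.14) and Pfdn6 (-0.18 and -0.22), and with spike-in scaling alone for Hsp90ab1 (-0.0294). Both scalings lower the median gene, so they could hardly undo a lower call. Pfdn6 was at -0.0959 with quantile normalization. Leaving out 1 library gave -0.0181 to 0.15 for Pfdn6 and -0.066 to 0.0148 for Hsf2, with 12 to 13 members higher and 10 to 15 lower. Where 1 library remained in a group, it was assumed to vary like the other group. With the replicate number as a block 12 members were higher and 13 lower, and 8390 genes were called in place of 8463, and Hspd1 (adjusted p by limma = 0.0883) and Cct6a (0.0613) lost their calls. Same-numbered libraries did not deviate together (r = -0.0561 across 11452 genes), so the numbers were not taken as pairs. TPM keep no depth, so the precision of low genes such as Hspa1a, Hspa1b and Hspb1 is unknown.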
